A study of Mus musculus with 8 samples.

Results

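The D-type cyclins, their kinase partners and the inhibitors that restrain them were followed in cultured epidermal cells, primary keratinocytes of mice with 2 genotypes. The set holds 10 of the 19457 genes in the table, taken by symbol and not by their values: Ccnd1, Ccnd2, Ccnd3, Cdk4, Cdk6, Cdkn1a, Cdkn1b, Cdkn1c, Cdkn2a and Cdkn2b. There were 4 libraries from wild-type mice (WT) and 4 from mice with HOIL1 ΔRING1 (HdR), which by its name removes the first RING domain of the ubiquitin ligase subunit HOIL-1L. All cultures were harvested before they reached confluence, and the labels give no treatment, age or sex. Separate mice or cultures are not stated for libraries of 1 genotype, so p-values reflect only how these libraries vary. The question was which members differed in transcript level with the HOIL1 genotype.

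D-type cyclins bind CDK4 or CDK6 early in the G1 phase, and these kinases phosphorylate the retinoblastoma protein, which then releases E2F transcription factors that drive S phase genes. The CIP/KIP inhibitors p21, p27 and p57 (Cdkn1a, Cdkn1b, Cdkn1c) bind cyclin-CDK complexes broadly, and the INK4 inhibitors p16 and p15 (Cdkn2a, Cdkn2b) bind CDK4 and CDK6. In the epidermis basal keratinocytes divide, and withdrawal from the cell cycle accompanies their move into the suprabasal layers. HOIL-1L belongs to the linear ubiquitin chain assembly complex, which acts in TNF and NF-κB signalling, and Ccnd1 is a known NF-κB target.

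Levels are normalised coverage: the bases aligned over a gene per megabase of its library's normalised total, written aligned bases per Mb. They were tested with limma on log2(level + 1), a pseudocount of 1, with HdR minus WT as the direction and Benjamini-Hochberg adjustment over all tested genes. The library totals were 4.78 to 5.43 Gb in WT and 2.31 to 4.31 Gb in HdR, so every HdR library was shallower and depth cannot be told apart from genotype. Rbck1, which encodes HOIL-1L, lay at 84.5 to 91.5 in WT and 41.1 to 45.2 in HdR (log2 fold change -0.99 ± 0.047, SE, limma adjusted p = 7.25e-11). Coverage over the whole gene does not show the deleted part. Keratinocyte markers dominated, with a summed level of 39522 to 42847 in WT and 42187 to 43507 in HdR over 9 genes.

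The members split by role. The 3 D cyclins and both kinases were higher in HdR, and the 4 inhibitors that could be tested were lower. Of the 10 members 9 passed the filter of a mean level of at least 1, and limma called all 9 at adjusted p under 0.05, 5 higher and 4 lower, where 45% of all 11870 tested genes were called (21.2% higher and 23.8% lower). With upper-quartile scaling the calls over all genes were 3113 higher and 2278 lower, in place of 2517 and 2829, and the members' 5 and 3. For 7 members, 3 higher and 4 lower, the genotypes had no overlapping values, as in 41.1% of all tested genes (19.8% higher and 21.3% lower). The member left untested was Cdkn2a, whose level was too low. Most changes were small. The treat test of limma, set to a fold of 1.2, called 2 members, Ccnd1 higher and Cdkn1c lower, where it called 7.47% of all tested genes (2.89% higher and 4.58% lower). The median log2 fold change was 0.14 over the 9 members and -0.01 over all tested genes.

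**Figure D1:**
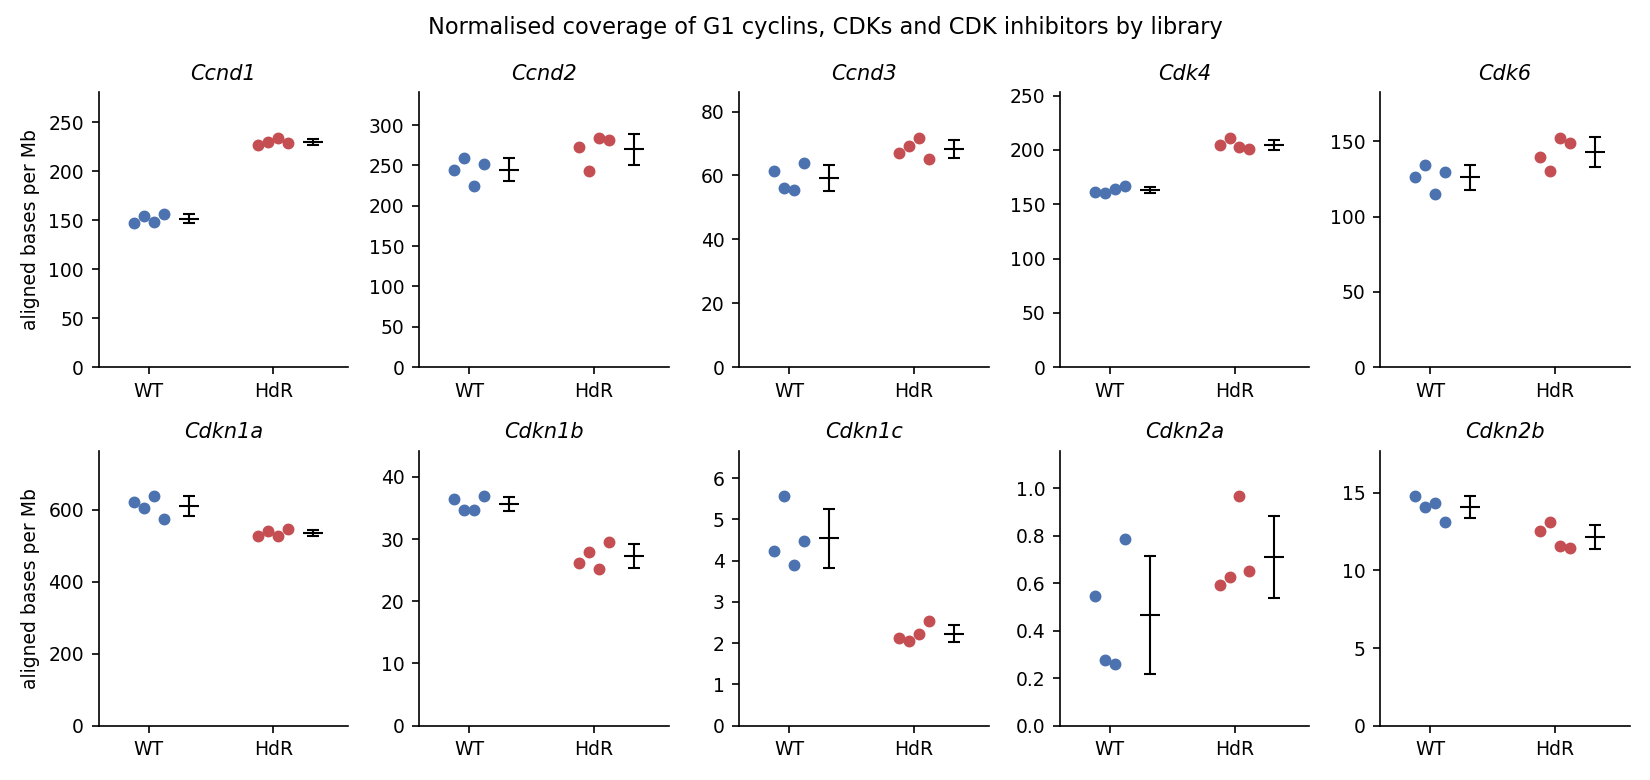
Normalised coverage of the 10 members (y axes, aligned bases per Mb, each starting at 0) in the 4 WT and 4 HdR libraries (points, in the order of their replicate numbers), with the mean and SD beside them. The Ccnd1 points lie at 148 to 156 in WT and 227 to 234 in HdR, and the Cdkn2a points lie under 1 in every library.

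Among the D cyclins, Ccnd1 showed the largest difference. Ccnd1, the cyclin D1 gene (GRCm38 chromosome 7, 144929931 to 144939925, minus strand), was at 148, 155, 148 and 156 aligned bases per Mb in WT 1 to 4. In HdR 1 to 4 it was at 227, 229, 234 and 229. The groups lay far apart, and each was tight, with a coefficient of variation of 2.76% in WT and 1.26% in HdR. The WT mean of 152 ± 4.19 stood against 230 ± 2.91 in HdR (SD, n = 4 each). This rise of 51.6% was a log2 fold change of 0.60 ± 0.034 (SE, 95% interval 0.52 to 0.67, limma adjusted p = 8.54e-10). Only 5.82% of all tested genes had a larger absolute log2 fold change. Against a fold of 1.2 its adjusted p was 1.71e-06.

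An annotated gene on the opposite strand, LTO1, overlaps 23.4% of the Ccnd1 exon bases, and the strand setting of the counting is not given in the sources used here. LTO1 itself was at 31.7 ± 0.884 in WT against 37.8 ± 1.69 (SD, n = 4 each; log2 fold change 0.25 ± 0.052, SE, limma adjusted p = 0.000924). Reads in the shared stretch could have counted for either gene.

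Ccnd2, the cyclin D2 gene (chromosome 6, 127125162 to 127152193), was at 244, 259, 225 and 252 aligned bases per Mb in WT 1 to 4 and at 272, 243, 284 and 282 in HdR 1 to 4. HdR 2 fell among the WT values, so the groups overlapped. HdR was higher by 0.14 ± 0.053 on the log2 scale (SE, 95% interval 0.03 to 0.25, limma adjusted p = 0.045), close to the threshold. Leaving out any of WT 1, WT 3, HdR 1, HdR 3 and HdR 4 ended the call (adjusted p 0.0901 to 0.125), as did testing with no filter on low levels (0.103). Leaving out HdR 2 gave a log2 fold change of 0.19 (adjusted p = 0.00457).

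Ccnd3, the cyclin D3 gene (chromosome 17, 47505051 to 47599691), was at 61.3, 56.2, 55.5 and 63.9 aligned bases per Mb in WT 1 to 4 and at 67.1, 69.1, 71.8 and 65.1 in HdR 1 to 4. All HdR values were above all WT values, with a narrow gap between WT 4 and HdR 4. The difference was 0.20 ± 0.052 on the log2 scale (SE, limma adjusted p = 0.00392). Bysl, which overlaps 4.1% of the Ccnd3 exon bases on the other strand, was at 0.23 ± 0.042 on the same scale.

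The kinase gene Cdk4 (chromosome 10, 127063534 to 127067920) was at 161, 160, 164 and 166 aligned bases per Mb in WT 1 to 4. In HdR 1 to 4 it was at 204, 211, 203 and 201. The groups were well apart, with means of 163 ± 2.82 and 205 ± 4.54 (SD, n = 4 each), a rise of 25.6%. Its log2 fold change was 0.33 ± 0.034 (SE, 95% interval 0.26 to 0.40, limma adjusted p = 8.89e-07), but the test against a fold of 1.2 did not call it (adjusted p = 0.315). Tspan31 shares 19.7% of the Cdk4 exon bases on the other strand. It was at 94.4 ± 2.83 in WT and 101 ± 4.12 in HdR (log2 fold change 0.10 ± 0.041, SE, limma adjusted p = 0.0617). Tspan31 passed the test with median-of-ratios, upper-quartile and library-total scaling, with length correction and without WT 3 (adjusted p 0.00514 to 0.0472).

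Cdk6 (chromosome 5, 3341485 to 3531008), which encodes the other kinase that D cyclins activate, was at 126, 134, 115 and 130 aligned bases per Mb in WT 1 to 4. In HdR 1 to 4 it was at 139, 130, 152 and 149. As for Ccnd2, HdR 2 lay within the WT range. Cdk6 had a log2 fold change of 0.17 ± 0.054 (SE, 95% interval 0.06 to 0.29, limma adjusted p = 0.0159). It missed the threshold without HdR 3 (adjusted p = 0.0568), without HdR 4 (0.0567) and with no filter on low levels (0.0517).

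Ccnd2 and Cdk6 ranked the libraries of each genotype in the same order, with WT 2 highest and WT 3 lowest, and HdR 3 highest and HdR 2 lowest. They are the longest members in merged exon length, 9409 and 13989 bases. Over the 1357 tested genes at least as long as Ccnd2, the median log2 deviation from the genotype mean was lowest in WT 3 (-0.07) and HdR 2 (-0.03) and highest in WT 2 (0.05) and HdR 3 (0.03). HdR 2 also had the highest level of the fibroblast genes Col1a1 (1.42), Vim (6.53), Col1a2 (0.621), Col3a1 (0.844) and Pdgfrb (0.494 aligned bases per Mb). Pdgfra was highest in HdR 4 (1.10 against 0.976 in HdR 2), and Dcn was at 0 in HdR 2. The part of the length or the fibroblast pattern in the Ccnd2 and Cdk6 values was not tested. With the trend on exon length removed from each library, an alternative chosen after seeing the data, the log2 fold changes were 0.16 ± 0.042 for Ccnd2 (SE, limma adjusted p = 0.00436) and 0.21 ± 0.041 for Cdk6 (adjusted p = 0.000273).

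**Figure D2:**
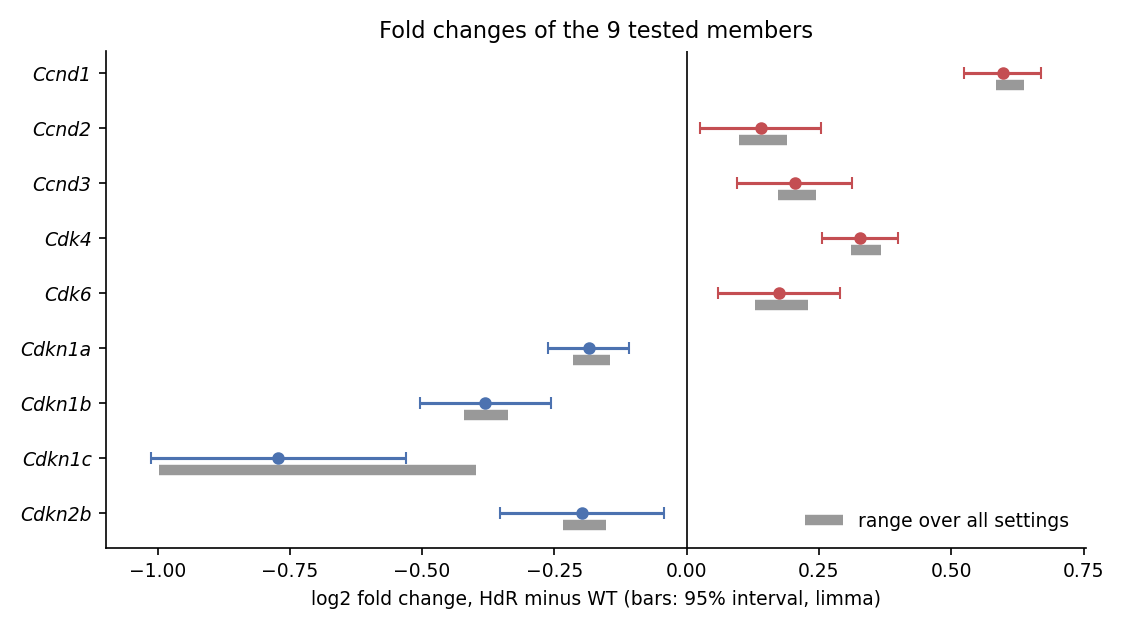
Log2 fold change, HdR minus WT (x axis), of the 9 tested members, with limma's 95% interval as thin bars and the lowest to highest value over the main setting and its alternatives as grey bars. The 5 cyclin and kinase genes lie right of 0 and the 4 inhibitor genes left of it in all settings that tested them.

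Among the CIP/KIP inhibitors, Cdkn1a, the p21 gene and a p53 target (chromosome 17, 29090976 to 29100727), was at 622, 604, 637 and 573 aligned bases per Mb in WT 1 to 4. In HdR 1 to 4 it was at 527, 540, 527 and 545. WT 4 was the lowest WT library and still above every HdR library. The means were 609 ± 27.5 and 535 ± 9.2 (SD, n = 4 each), and the log2 fold change was -0.19 ± 0.036 (SE, 95% interval -0.26 to -0.11, limma adjusted p = 0.000534). Between the mean of WT 1 to 3 and the HdR mean, WT 4 lay 0.54 of the way. This position of WT 4 was 0.61 for Ccnd3, 0.53 for Cdkn2b, 0.38 for Ccnd2 and 0.295 for Cdk6. It was 0.12 for Cdk4, 0.09 for Ccnd1, 0.01 for Cdkn1c and -0.17 for Cdkn1b, and 1.21 for the very low Cdkn2a. Absolute log2 fold changes larger than that of Cdkn1a were found in 42.2% of all tested genes.

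Cdkn1b, the p27 gene (chromosome 6, 134920401 to 134925513), was at 36.4, 34.7, 34.6 and 36.9 aligned bases per Mb in WT 1 to 4. In HdR 1 to 4 it was at 26.1, 27.9, 25.2 and 29.6. The groups did not overlap, and the mean fell from 35.7 ± 1.15 to 27.2 ± 1.93 (SD, n = 4 each). Cdkn1b thus fell by 0.38 ± 0.059 on the log2 scale (SE, 95% interval of the fold change -0.50 to -0.26, limma adjusted p = 5.50e-05). The test against a fold of 1.2 gave an adjusted p of 0.265.

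Cdkn1c, the p57 gene, an imprinted inhibitor expressed mainly from the maternal allele (chromosome 7, 143458339 to 143461050), had the largest relative fall. It was at 4.22, 5.56, 3.9 and 4.49 aligned bases per Mb in WT 1 to 4 and at 2.12, 2.05, 2.23 and 2.53 in HdR 1 to 4. Every HdR value was well below every WT value, and the mean fell from 4.54 ± 0.719 to 2.23 ± 0.213 (SD, n = 4 each), a ratio of 0.491. Its log2 fold change was -0.77 ± 0.11 (SE, limma adjusted p = 3.73e-05), a size passed by 3.13% of all tested genes. At these levels the pseudocount shrinks the fold: it was -0.99 with a pseudocount of 0.1 and -0.40 with 5. An antisense gene, Gm44732, overlaps 30.7% of its exon bases and no value for it was used here.

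Among the INK4 inhibitors, Cdkn2b, the p15 gene and a known TGF-β target (chromosome 4, 89306299 to 89311039), was at 14.8, 14.1, 14.3 and 13.1 aligned bases per Mb in WT 1 to 4. In HdR 1 to 4 it was at 12.5, 13.1, 11.6 and 11.4. WT 4 and HdR 2 almost touched. The log2 fold change was -0.20 ± 0.074 (SE, 95% interval -0.35 to -0.04, limma adjusted p = 0.0372). This was the least stable call, lost in 11 of 20 alternatives. In 5 of these WT 1, WT 2, WT 3, HdR 3 or HdR 4 had been left out, with adjusted p of 0.0683 to 0.106, and in the other 6 it was 0.0546 to 1.

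Cdkn2a, which encodes p16 and, from another reading frame, p19ARF, lies 11645 bases from Cdkn2b (chromosome 4, 89274471 to 89294653). It was near the limit of these libraries, at 0.546, 0.277, 0.262 and 0.785 aligned bases per Mb in WT 1 to 4 and at 0.592, 0.629, 0.967 and 0.65 in HdR 1 to 4. These levels correspond to 4.4 to 13.3 read-pair equivalents per library, and the groups overlapped. Coverage is summed over the gene, so its 2 transcripts cannot be separated. Without the filter, limma gave a log2 fold change of 0.23 ± 0.12 (SE, adjusted p = 0.207), so a difference was not detectable at this depth.

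Other inhibitors of the INK4 family were taken from a list of pathway genes. Cdkn2c, the p18 gene, fell, with a mean of 19.6 ± 2.19 in WT against 14.6 ± 0.994 (SD, n = 4 each; log2 fold change -0.40 ± 0.080, SE, limma adjusted p = 0.000661). Cdkn2d, the p19 INK4D gene, was at 7.86 ± 0.69 in WT and 7.05 ± 0.725 in HdR, a difference that did not pass the test (adjusted p = 0.243).

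Promoter sequences are shown for 4 members to set the letters upstream of 1 kinase gene that rose beside those of 3 inhibitor genes that fell. They are the 250 bases upstream of a RefSeq transcription start (GRCm38.p6), written 5′ to 3′ along the gene's strand. Capitals mark matches on either strand to an E-box (CACGTG), a GC box (GGGCGG) or a CRE (TGACGTNA).
Cdk4, chr10:127063285-127063534, plus strand: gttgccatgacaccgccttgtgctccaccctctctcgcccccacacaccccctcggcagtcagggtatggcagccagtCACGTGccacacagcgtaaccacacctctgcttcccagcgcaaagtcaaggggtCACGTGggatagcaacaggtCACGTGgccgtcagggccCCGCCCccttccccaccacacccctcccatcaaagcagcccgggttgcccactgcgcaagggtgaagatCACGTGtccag
Cdkn1a, second start, chr17:29093519-29093768, plus strand: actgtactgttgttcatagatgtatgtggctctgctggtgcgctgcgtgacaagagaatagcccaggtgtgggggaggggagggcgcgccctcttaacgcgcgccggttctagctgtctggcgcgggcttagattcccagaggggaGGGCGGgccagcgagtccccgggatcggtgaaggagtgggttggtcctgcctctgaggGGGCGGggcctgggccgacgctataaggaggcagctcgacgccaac
Cdkn1b, chr6:134920151-134920400, plus strand: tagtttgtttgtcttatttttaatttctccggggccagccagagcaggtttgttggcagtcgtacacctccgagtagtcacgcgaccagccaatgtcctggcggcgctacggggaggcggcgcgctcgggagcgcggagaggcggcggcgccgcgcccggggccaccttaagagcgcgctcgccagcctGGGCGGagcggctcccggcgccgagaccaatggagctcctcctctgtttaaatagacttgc
Cdkn2b, chr4:89311033-89311282, minus strand: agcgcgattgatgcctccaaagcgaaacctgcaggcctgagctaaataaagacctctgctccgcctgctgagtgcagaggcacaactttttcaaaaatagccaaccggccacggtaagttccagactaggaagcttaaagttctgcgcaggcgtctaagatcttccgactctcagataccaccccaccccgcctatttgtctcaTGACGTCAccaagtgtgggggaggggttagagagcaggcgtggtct

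Cdk4 carried 4 E-boxes, the letters bound by MYC and MAX, beginning at positions -172, -118, -98 and -11, counted back from the start. At least 1 E-box occurs in 6.02% of 32851 such windows. It also held 1 GC box, from position -80. The fallen genes shown had no E-box, like most windows, and Ccnd3, which rose, had none either. Cdkn1a and Cdkn1b held 2 and 1 GC boxes (present in 32.7% of windows), and Cdkn2b held a CRE, whose letters read the same on both strands (2.52% of windows). Cdk6, which rose, had 1 E-box and 1 match to the E2F letters TTTNNCGC (4.28% of windows). Both Cdkn2a windows also held an E2F match. The window at the first Cdkn1a start held none of the motifs, and both Ccnd3 windows held only GC boxes. No member window matched the NF-κB letters, GGG and TTTCC with any 2 bases between them (1.41% of windows) or the AP-1 letters TGANTCA (6.75%). Windows were matched for 7 of the 10 members, the others being Ccnd1, Ccnd2 and Cdkn1c. These matches are letters in a sequence and show no binding.

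Levels can be set beside each other between genes only per length, here as aligned bases per Mb per kb of merged exons. Cdkn1a was by far the most abundant member, at 171 ± 7.75 in WT libraries and 151 ± 2.59 in the HdR ones (SD, n = 4 each), above 97.4% of tested genes. Cdk4 (50.1 and 63.0), Ccnd1 (32.2 and 48.8) and Ccnd2 (26.0 and 28.7) followed in both genotypes without overlap between neighbours. In WT came Cdkn2b (10.1), Cdk6 (9.02), Cdkn1b (7.83) and Ccnd3 (6.75), of which Cdkn2b and Cdk6 overlapped. In HdR Cdk6 (10.2) stood above Cdkn2b (8.74), again overlapping, and Ccnd3 (7.78) above Cdkn1b (5.98) without overlap. Cdkn1c (2.23 and 1.10) and Cdkn2a (0.399 and 0.605) were lowest in both. Merged exons include exons that may not be used here, above all for Ccnd3, with 8775 bases against 3858 for its longest transcript. The order and the lack of overlap given above therefore hold for this length only. Per kb of the longest transcript, Ccnd1 made up 42.0% to 44.3% of the summed D cyclin coverage in WT libraries, and Ccnd2 39.6% to 42.3%.

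Ratios within a library do not depend on the scaling between libraries and were described without a test. Of the summed D cyclin coverage per kb, Ccnd1 made up 48.8%, 49.2%, 51.1% and 49.3% in WT 1 to 4 and 56.9%, 59.1%, 56.4% and 56.6% in HdR 1 to 4. The Ccnd2 share was 40.0 ± 1.06% in WT and 33.6 ± 1.59% in HdR, and the Ccnd3 share 10.4 ± 0.603% and 9.12 ± 0.397% (SD, n = 4 each). Thus Ccnd1 took a larger share of D cyclin transcripts in every HdR library than in any WT library, although all 3 genes were called higher. With the longest transcript as the length, the Ccnd1 share was 42.9% in WT and 50.5% in HdR.

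The log2 ratio of Cdkn1a to Ccnd1 per kb, a pair chosen after their values were seen, was 2.48, 2.37, 2.51 and 2.28 in WT 1 to 4. It was 1.62, 1.64, 1.58 and 1.66 in HdR 1 to 4. The HdR libraries were lower by 0.79 in the mean and were tighter, with an SD of 0.034 against 0.10. The ratio of Cdkn1a to Cdkn1b moved the other way, from 4.45 ± 0.10 to 4.66 ± 0.078, since Cdkn1b fell further. The log2 ratio of Cdk4 to Cdk6 was 2.48 ± 0.11 in WT and 2.63 ± 0.13 in HdR, and the groups overlapped. That of Cdkn2b to Cdkn2a was 4.82 ± 0.81 and 3.88 ± 0.38 and also overlapped.

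**Figure D3:**
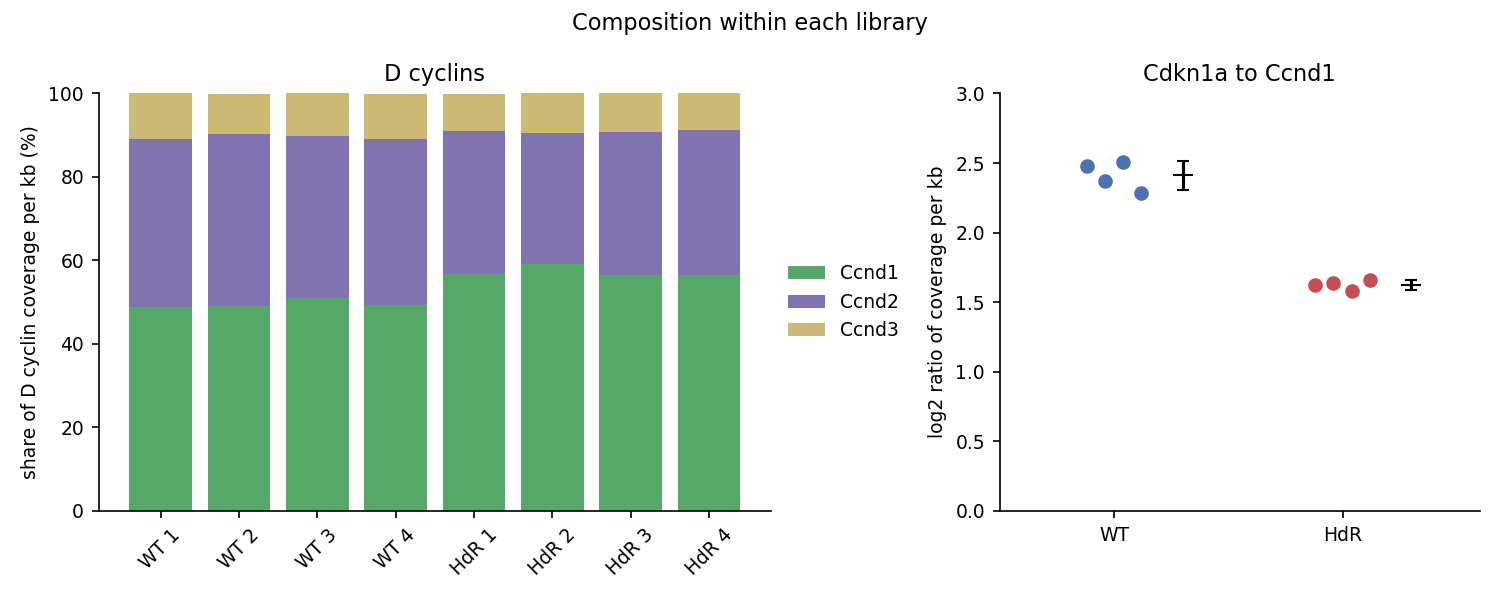
Left, the share of each D cyclin gene in the summed D cyclin coverage per kb (y axis, percent) in each library. Right, the log2 ratio of Cdkn1a to Ccnd1 coverage per kb (y axis) by genotype, with each library as a point and the mean and SD beside them. The Ccnd1 share is 48.8% to 51.1% in WT and 56.4% to 59.1% in HdR.

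The genes that act beside the members were described from lists chosen with earlier results of these data known, and their counts stand beside the 45% called among all tested genes (21.2% higher and 23.8% lower). In the retinoblastoma and E2F list 4 of 16 tested genes were called higher and 3 lower, 43.8% in all and so near that background, with a median log2 fold change of 0.04. Rb1, the retinoblastoma gene, fell from 34.0 ± 3.85 to a mean of 24.1 ± 0.758 (SD; log2 fold change -0.48 ± 0.072, SE, limma adjusted p = 4.56e-05). E2f2 and the E2F partner gene Tfdp2 also fell, by 0.51 ± 0.12 and 0.30 ± 0.077 on the log2 scale. Mybl2, an E2F target that encodes B-Myb, rose by 0.37 ± 0.053, the E2F partner gene Tfdp1 by 0.27 ± 0.042 and the repressor genes E2f6 and E2f8 by 0.28 ± 0.059 and 0.22 ± 0.063.

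Of 11 genes for CDK2 cyclins, CDK activation and other INK4 proteins, 5 were called higher and 1, Cdkn2c, lower, 54.5% in all against the background of 45% (median log2 fold change 0.13). Both cyclin E genes rose, Ccne1 from 24.7 ± 1.23 to 35.0 ± 2.26 and Ccne2 from 18.1 ± 1.14 to 23.4 ± 1.51 (SD, n = 4 each). Cdc25a, the phosphatase that activates CDK2, rose by 0.46 ± 0.057 and the cyclin A gene Ccna2 by 0.29 ± 0.041 on the log2 scale (SE). Cdc37, a cochaperone gene whose product loads CDK4 onto HSP90, rose by 0.18 ± 0.045. Cdk2 itself, at 41.7 ± 1.49 and 40.9 ± 2.19, did not pass the test (limma adjusted p = 0.689).

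Genes for the turnover of D cyclins, p27 and p21 included 5 called higher and 1 lower of 17 tested, 35.3% in all and below the background of 45% (median log2 fold change 0.07). Skp2, the F-box gene of the ligase that marks p27 for degradation, rose from a mean of 7.92 ± 0.854 to one of 11.4 ± 0.344 (SD; log2 fold change 0.47 ± 0.085, SE, limma adjusted p = 0.000239). Its cofactor gene Cks1b rose by 0.16 ± 0.044, and Ddb1, an adaptor of the CUL4 ligase, by 0.30 ± 0.034 on the log2 scale. The other calls were near the threshold and were lost in many alternatives. The CUL4 substrate receptor gene Dtl (0.20 ± 0.068, limma adjusted p = 0.0246) lost its call with no filter, after thinning and without WT 2, WT 3, HdR 1 or HdR 3 (adjusted p 0.0557 to 0.0895). The scaffold gene Cul4b (0.12 ± 0.043, adjusted p = 0.0368) lost it after thinning and without any 1 library but WT 4 and HdR 2 (0.0527 to 0.119). Usp2, a deubiquitinase gene whose product stabilises cyclin D1 (-0.37 ± 0.13, adjusted p = 0.0424), kept it without WT 4 or HdR 1 and lost it without any 1 of the others. Usp2 also lost its call with upper-quartile scaling (limma adjusted p = 0.0563), with no filter (0.0651) and with length correction (0.055). These counts depended on the setting, with 9 higher and 0 lower with upper-quartile scaling and 3 and 0 without WT 2, WT 3 or HdR 3. They were 3 and 1 without HdR 1 and after thinning all libraries to the smallest, and 7 and 0 with length correction. The lower call was also lost without WT 1, HdR 2 or HdR 4 (4, 5 and 4 higher).

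Of 31 tested transcriptional regulators of the members, 4 were called higher and 9 lower, 41.9% in all and near the background of 45% (median log2 fold change -0.01), but 8 and 8 with upper-quartile scaling and with length correction. They were 6 and 9 without WT 4. Trp53, the p53 gene, was at 133 ± 3.24 against 165 ± 6.61 in HdR (SD, n = 4 each; log2 fold change 0.31 ± 0.038, SE) and rose, while its target Cdkn1a fell. The other genes called higher were Tbx3, a repressor of the Cdkn2a locus (0.40 ± 0.12), the TGF-β effector gene Smad3 (0.19 ± 0.061) and Max (0.14 ± 0.043). Smad3 lost its call without WT 1 (limma adjusted p = 0.0585), and Max without HdR 3 (0.0598) and after thinning (0.0695). Kdm6b, a histone demethylase gene, fell by 0.40 ± 0.053 and the SMAD partner gene Smad4 by 0.19 ± 0.044 on the log2 scale. Of 5 MYC antagonist genes on the list, singled out after their values were seen, Mxi1, Mxd1 and Mxd4 fell by 0.47 ± 0.064, 0.52 ± 0.14 and 0.29 ± 0.071. Mxd3 and Mnt, at 0.08 ± 0.079 and 0.02 ± 0.053, did not pass the test (limma adjusted p = 0.429 and 0.835). Also called lower were Mycl, itself a MYC family gene (-0.33 ± 0.099, limma adjusted p = 0.0121), and Zbtb17 (-0.23 ± 0.058). Foxo4 (-0.23 ± 0.055) and Smad7 (-0.16 ± 0.056) completed the lower calls, and Smad7 lost its call with no filter (limma adjusted p = 0.0521). The list's lower calls numbered 8 with no filter, with library-total scaling and after thinning, and 7 with the replicate block. They also numbered 8 without WT 1, WT 2, HdR 1, HdR 2 or HdR 4. Myc was at 251 ± 13.8 and 264 ± 6.17 and did not pass the test (limma adjusted p = 0.155). It passed with upper-quartile scaling (adjusted p = 0.0363), with length correction (0.0214) and without WT 4 (0.0374), and its range over the alternatives was 0.0214 to 1.

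All 8 proliferation markers were called higher, where 21.2% of all tested genes were, with a median log2 fold change of 0.36. All 8 were also called higher in each of the alternatives except the test against a fold of 1.2. That test called 2 of them higher, where it called 2.89% of all tested genes higher. The replication licensing gene Mcm5 had means of 122 ± 8.36 in WT and 169 ± 6.83 in HdR, and the mitotic kinase gene Plk1 means of 61.2 ± 6.48 and 92.4 ± 3.97 (SD, n = 4 each). Mcm2 and Top2a rose by 0.39 ± 0.043 and 0.38 ± 0.045 on the log2 scale (SE). The summed level of the 8 genes was 1124 to 1236 in WT and 1406 to 1502 in HdR.

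**Figure D4:**
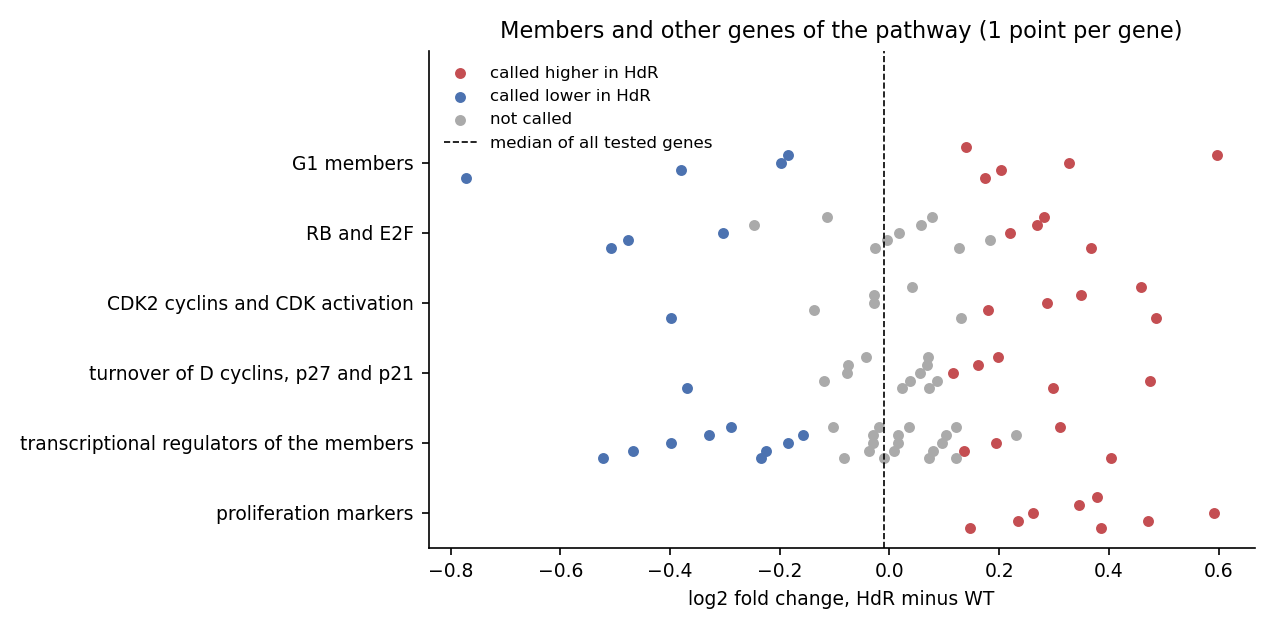
Log2 fold change, HdR minus WT (x axis), of each tested gene (point) of the members and 5 lists of pathway genes (rows), coloured by limma's call at adjusted p under 0.05. The dashed line is the median of all tested genes (-0.01), and all 8 proliferation markers lie right of it.

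Of the 9 keratinocyte markers 4 were called higher and 2 lower, 66.7% in all against the background of 45% (21.2% higher and 23.8% lower). The basal keratin gene Krt14, Trp63 and Cdh1 did not pass the test (limma adjusted p = 0.571, 0.107 and 0.200). The basal integrin genes Itgb4 and Itga6, the hemidesmosome collagen gene Col17a1 and the basal keratin gene Krt5 rose by 0.43 ± 0.041, 0.28 ± 0.050, 0.14 ± 0.045 and 0.10 ± 0.036 on the log2 scale (SE). Col17a1 and Krt5 lost the call without WT 1, HdR 1, HdR 3 or HdR 4 (limma adjusted p 0.0514 to 0.118). The suprabasal keratin gene Krt10 fell, with means of 208 ± 10 in WT and 49.4 ± 3.67 in HdR, and so did Krt1 (228 ± 19.3 and 86.1 ± 8.15, SD, n = 4 each). The summed level of 10 melanocyte markers was 51.5 to 59.3 in WT and 26.8 to 28.8 in HdR. Of the 6 that passed the filter 5 were called lower, where 23.8% of all tested genes were, but Tyr (1.85 in WT and 0.635 in HdR) and Mlana (1.48 and 0.80) passed it only through WT. Mitf was not called (log2 fold change -0.20 ± 0.11, SE, limma adjusted p = 0.151), and its groups overlapped. Those of Sox10, too low to be tested, also overlapped (means 0.804 in WT and 0.603 in HdR). The stricter filter of 5 in at least 4 libraries left 4 genes, 3 of them called lower. Among those called lower, Pmel passed this filter too only through WT (8.41 to 10.4, against 3.76 to 4.01 in HdR). In bulk RNA, fewer cells of a type and less RNA per cell cannot be told apart, and the part of either in the members' changes was not tested. The sums of 7 fibroblast markers were 2.48 to 4.03 in WT and 2.87 to 10.9 in HdR. Those of 8 immune markers were 4.28 to 6.64 and 3.2 to 4.78, with Lyz2, Cd207 and Adgre1 at 0 in all libraries. Nearly all of the immune sum was Itgam, at 4.17 to 6.45 in WT and 3.13 to 4.47 in HdR (limma adjusted p = 0.00602). Ptprc was at 0.061 in WT 1 and at 0 elsewhere. The sums of 5 endothelial markers were 5.09 to 6.49 and 7.04 to 8.52. Of these 5 only Egfl7 passed the filter, and it was not called (log2 fold change 0.20). With no filter 1 of the 5 was called higher, where 2457 of 18370 genes were.

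The genes whose levels followed Ccnd1 most closely over the 8 libraries, by Pearson correlation of log2 levels among 11362 genes, were Erdr1 (r = 0.9965), Cyr61 (0.996) and Plod2 (0.9959). Their log2 fold changes were 2.57, 0.70 and 0.80. For Cdkn1a they were Serpina12 (r = 0.9969), Mapk3 (0.9962) and Lypd5 (0.9953), with log2 fold changes of -1.74, -0.40 and -0.90. Such values mostly reflect the split between the genotypes: 535 genes had r over 0.95 with Ccnd1 and 315 with Cdkn1a.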

How the data were processed

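RNA from cultured keratinocytes was sequenced in 8 libraries, 4 WT and 4 HdR, mapped to their groups by title and library name. The authors deposited 1 table whose values are signal: coverage, the sum of aligned bases per gene, unscaled. No label or header names the unit, which was read from the values: 302, a full read pair, was the commonest above 0. Of values above 0 and below 10 such steps 16.9% were whole steps, so they are not read counts. The submitters' processing notes give the build as GRCm38, and the aligner, counter, annotation and strand setting are not given in the sources used here.

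Libraries were scaled with trimmed-mean factors (30% of log ratios and 5% of mean levels trimmed at each end). Genes with a mean of at least 1 aligned base per Mb were tested with limma 3.58.1 (trend, robust; statmod 1.5.0) in R 4.3.3 on all 8 libraries with genotype as the only factor. The calculation was tested on simulated data. Read-pair equivalents are coverage divided by 302. Coordinates and lengths come from GENCODE vM21 and promoter windows from RefSeq (GRCm38.p6). Figures used Python 3.11.15 and matplotlib 3.10.9.

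The members, lists, motifs and alternatives were chosen with earlier results of these data known. Named genes are all members, Rbck1, up to 4 called genes with the smallest p per list and those its count needs, and the 3 genes most like Ccnd1 and Cdkn1a. LTO1, Bysl, Tspan31, Gm44732, Rbl1, Rbl2, Cdk2, Tbx3, Smad3 and Max were named after seeing the data. So were Mxd1, Mxd3, Mxd4, Mnt, Mycl, Zbtb17, Foxo4, Smad7 and the marker genes. The 20 alternatives covered scaling, filters, pseudocounts of 0.1 and 5, limma-voom, the replicate block, a fold of 1.2, thinning and each library left out. Length correction was added after seeing the data.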

Additional observations from a re-analysis of the deposited data

Results flagged for a closer look

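In a group of 4 libraries, a highest or lowest value far from the others was looked for in 148 groups of values, and 7 were found; chance gives about 1 in 20. Cdkn2a was at 0.967 aligned bases per Mb in HdR 3 against 0.592 to 0.65 in the other HdR libraries. The Ccnd1 share of D cyclin coverage was 59.1% in HdR 2 against 56.4% to 56.9% in the others. Cdc25a was at 40.8 in WT 4 against 34.9 to 35.0, toward the HdR level of 50.3 ± 1.92 (SD, n = 4). E2f2 was at 2.83 in HdR 1 against 3.96 to 4.18 in the other HdR libraries. Tyr, a pigment enzyme gene, was at 0.714 in HdR 4 against 0.598 to 0.616 in the other HdR libraries. Erdr1 was at 8.17 in WT 4 against 5.87 to 6.21, and at 48.0 in HdR 2 against 42.2 to 42.6.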

How the results depend on the processing

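All 9 tested members kept their direction in every alternative that tested them. Ccnd1 passed the threshold in all 20 alternatives (log2 fold change 0.58 to 0.64) and Cdkn1c in the 19 that tested it, while Ccnd3, Cdk4, Cdkn1a and Cdkn1b lost the call only against a fold of 1.2. That test called 887 genes and 2 members. Upper-quartile scaling called 3113 genes higher and 2278 lower, against 2517 and 2829. Without each library in turn, 4561 to 5289 genes and 6 to 9 members were called, the fewest members without HdR 3 or HdR 4. Same-numbered libraries did not deviate together (correlations across genes 0.03, -0.07, -0.22 and 0.02), while WT 3 and HdR 2 were at 0.25. Such correlations cannot show whether the numbers pair the libraries, which the labels do not state. With the replicate block 4755 genes and 7 members were called, Ccnd2 (adjusted p = 0.086) and Cdkn2b (0.0546) losing the call. Cul4b (0.0798), Mxd1 (0.0724), Col17a1 (0.0628) and Krt5 (0.0831) also lost it under the block. Rbl1 was at -0.13 without WT 1 and at up to 0.38 (without HdR 2) with other libraries left out. Mnt, at 0.02 in the fit reported, was at -0.0214 with limma-voom and at -0.0185 (without WT 3) to 0.052 (without HdR 1) with 1 library left out. The causes were not tested. Depth limits Cdkn2a, and the lower depth of all HdR libraries cannot be told apart from genotype. Thinned to the smallest library, 4538 of 11863 tested genes and 8 of 9 tested members were called.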

Other observations

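Rbl1, the gene of the retinoblastoma-related protein p107, was singled out after its values were seen. It was at 30.3, 63.9, 57.0 and 65.6 aligned bases per Mb in WT 1 to 4 and at 70.6, 32.9, 71.4 and 62.5 in HdR 1 to 4. WT 1 and HdR 2 were thus far below the other libraries of their own genotype, and the genotypes overlapped (limma log2 fold change 0.13 ± 0.36, SE, adjusted p = 0.805). Its relative Rbl2, the p130 gene, was at 22.7 to 24.4 in WT and 20.6 to 22.5 in HdR, with no library set apart in this way.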
